A study of Mus musculus with 33 samples.

Results

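The data described here are ribosome footprints from the hippocampus of mice with and without the transfer RNA n-Tr20. They make up 6 of the 33 samples of the series, chosen by their titles: 3 libraries of C57BL/6NJ mice (B6N) with wild-type n-Tr20 and 3 of C57BL/6NJ mice with the genotype n-Tr20 -/-, called knockout below. Both groups were 8 weeks old, and all 6 libraries carry the same batch label (batch 4). The labels name no treatment and no Cre or transgene in either group. Set beside the footprints are hippocampal RNA of the same genotypes (3 against 3 samples, batch 3, selected by poly(dT)) and forebrain RNA of the same genotypes (4 against 4 samples, batch 1), all at 8 weeks. The forebrain values come from a fit that also held, for its estimate of spread, 4 forebrains of C57BL/6J mice, a strain labelled as a hypomorphic mutant for n-Tr20, and 4 of C57BL/6J mice with the transgene Tg(n-Tr20), both of the same age and batch. The column headers of the footprint and hippocampal RNA files name the mice B6JN rather than B6N, so their background is less certain than the strain label says. Every gene with enough counts was examined.

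A ribosome shields the stretch of mRNA it sits on, and sequencing the shielded fragments counts how many ribosomes occupy each gene's message. n-Tr20 is a nuclear-encoded arginine tRNA with the anticodon UCU that reads AGA codons and is enriched in the nervous system. When decoding is disturbed, cells can phosphorylate the initiation factor eIF2 alpha (the integrated stress response), which lowers initiation on most messages while ribosomes pass more often to the coding region of Atf4, a transcription factor whose targets include enzymes of amino acid synthesis, amino acid transporters and aminoacyl-tRNA synthetases.

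The footprint files list 22523 genes, of which 21904 are annotated as protein coding and 5948 had 0 counts in all 6 libraries. The tRNA itself was not analysed here, so the knockout label has no direct check in these values. Total counts were 10 M, 9.1 M and 11.2 M (M, 1000000 counts) in B6N libraries 1 to 3, and 17.9 M, 7.6 M and 8.3 M in knockout libraries 1 to 3. Knockout 1 stood apart: besides being the deepest, it had Y-linked Ddx3y at 44.2 counts per 1000000 (CPM) against 67.3 to 107 in the other libraries, and Uty at 14.1 against 25.5 to 33.6. The sources do not give the sex of the mice, and results are therefore also given without this library. The hippocampal RNA library of knockout 1 stood apart too, with Xist at 1243 CPM against 0.238 to 2.31 in the other 5 and Ddx3y at 0.336 against 45.9 to 56.2. The 8 markers of CA1 pyramidal neurons, a hippocampal cell type, summed to 477 to 891 CPM in B6N and 681 to 937 in the knockout. CPM values are scaled by library size factors (TMM), except those of the Y-linked genes in footprints, and allow comparison of 1 gene between libraries, not of 1 gene with another.

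Across 13227 genes tested with edgeR's quasi-likelihood test, 290 were higher and 418 lower in the knockout at a Benjamini-Hochberg adjusted p under 0.05, which is 2.19% and 3.16% of the genes tested (5.35% in all). A gene is said below to rise or fall, or to be called, only at that threshold. Calls were more common at high levels. With genes cut into 5 groups by mean footprint level, 0.302% of the lowest group were called higher and 0.718% lower. In the highest group the shares were 6.5% and 5.37%, against which lists of high level are to be read. Groups that did not overlap were more common than calls: all 3 knockout libraries lay above all 3 B6N libraries for 1711 genes (12.9%) and below them for 1816 (13.7%). The median log2 change over all genes was 0.00, and the biological coefficient of variation was 12.9%. The number of calls depended on single libraries: it was 916 without B6N 1, 152 without B6N 2, 32 without B6N 3, 264 without knockout 1, 59 without knockout 2 and 789 without knockout 3. Of 125 called genes that the naming rule picked, 12 passed under all 18 other settings, which include leaving out each library: Asns, Atp5j2, Slc7a1, Atf4, Nars, Pcsk1n, Cplx1, Ost4, Mbp and the histone genes Hist1h4d, Hist1h4c and Hist1h3f. None of the 133 genes the rule picked changed direction in any setting. The p-values measure the spread between these libraries. The labels do not say that the replicates are separate animals.

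**Figure D1:**
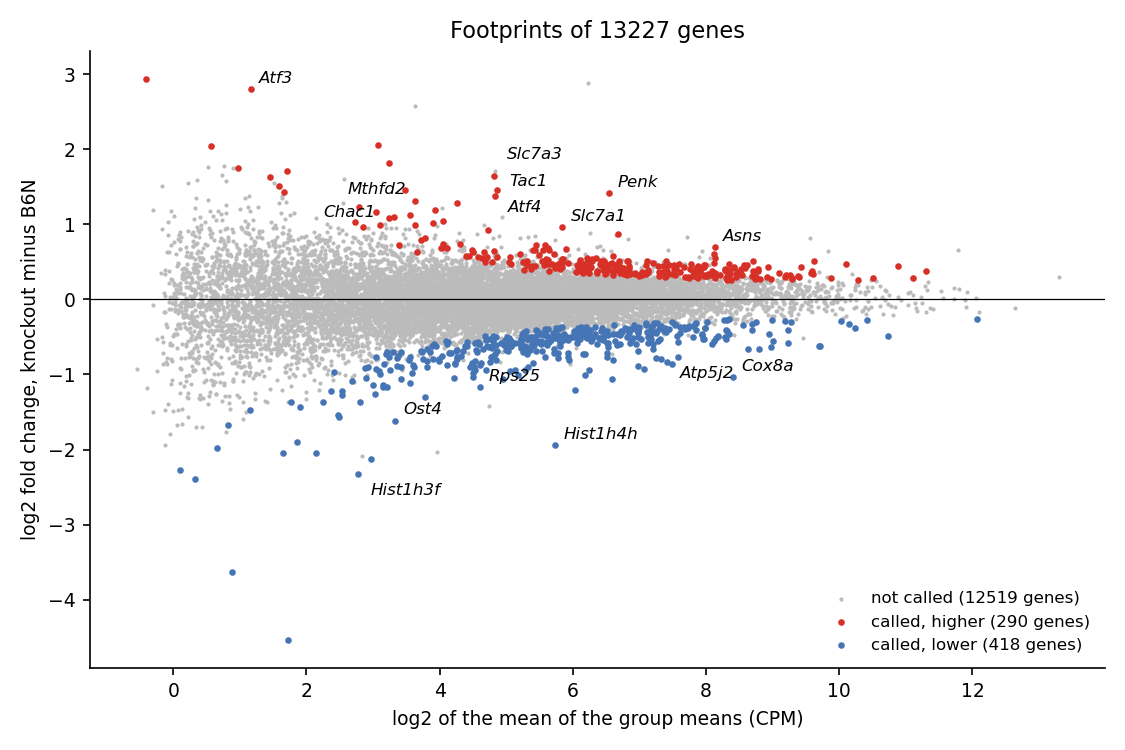
Log2 fold change of footprints (knockout minus B6N, vertical axis) against the log2 of the mean footprint level in CPM (horizontal axis) for 13227 genes, 1 point per gene. Red points are the 290 genes called higher and blue points the 418 called lower; Atf4, Asns, Slc7a1 and Atp5j2 stand clear of the grey genes at their level.

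Atf4, the factor that carries the stress signal to the genome, rose in all 3 knockout libraries. Its footprint level was 12.8, 15.5 and 18.9 CPM in B6N and 39.2, 46.8 and 38 CPM in the knockout. The groups lay far apart, and the log2 fold change was 1.38 ± 0.158 (SE, adjusted p = 0.00109), a 2.61-fold rise. Atf4 lies on chromosome 15 from 80255184 to 80257545 (GRCm38, RefSeq annotation, as for all positions below). Atf3, another stress-induced factor, was at 0.497, 1.09 and 0.178 CPM in B6N and at 6.56, 3.42 and 1.68 in the knockout, with a log2 fold change of 2.81 ± 0.617 (adjusted p = 0.0246) on few counts. Ddit3, the pro-apoptotic factor CHOP, did not follow: its main entry was at 4.08, 6.52 and 5.43 CPM in B6N and 3.85, 3.29 and 3.13 in the knockout (log2 fold change -0.62 ± 0.282, adjusted p = 0.216), and a second entry of the same symbol was at -0.09 (adjusted p = 0.916). Cebpb, Cebpg, Nupr1 and Atf5, further factors of this response, had adjusted p of 0.439, 0.751, 0.802 and 0.302.

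The 44 genes listed for ATF4 and the integrated stress response gave 41 tested entries (Ddit3 has 2). Of these 17 rose and 0 fell, 41.5% against 2.19% of all genes called higher, and 36 had a positive log2 fold change. The median was 0.38, against 0.00 over all genes. Without knockout 1, 12 rose and the median was 0.36. The count was lowest without B6N 3 (4), followed by knockout 2 (7) and B6N 2 (10). In hippocampal RNA the median over 40 of these genes was 0.26 and 5 rose, and in forebrain RNA it was 0.28 and 20 rose. Sensors and effectors upstream did not move at this threshold: of 15 genes for the eIF2 alpha kinases, the eIF2 alpha subunit and its phosphatases, 0 were called in either direction by edgeR, 0 by DESeq2 and 0 at an unadjusted p under 0.05. Eif2s1, the eIF2 alpha subunit itself, was at 0.18 ± 0.108 (adjusted p = 0.352). Ppp1r15a, the inducible phosphatase subunit, was at 1.59, 1.2 and 0.979 CPM in B6N and 1.84, 0.921 and 1.32 in the knockout, too low to read.

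ATF4 and its partners of the C/EBP family bind composite elements that hold the letters TGATGNAA. The 8 letters were searched on both strands in the 250 bases upstream of RefSeq transcription starts (GRCm38.p6), and stretches of the promoters that hold a match are shown for 4 genes that rose, with the matched letters in capitals, so that the element can be compared between an amino acid enzyme, a glutathione enzyme, a stress factor and a tRNA synthetase.
Asns, chr6:7693210-7693258, minus strand: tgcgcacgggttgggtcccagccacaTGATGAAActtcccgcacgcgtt
Chac1, chr2:119351023-119351082, minus strand: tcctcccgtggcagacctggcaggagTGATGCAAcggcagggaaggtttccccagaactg
Atf3, chr1:191183410-191183469, plus strand: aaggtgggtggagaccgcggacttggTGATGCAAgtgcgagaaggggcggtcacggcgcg
Gars, chr6:55037945-55038000, minus strand: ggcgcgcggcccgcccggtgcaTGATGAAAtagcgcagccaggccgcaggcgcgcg
The match in Asns ends 16 bases before the start and that in Gars 23 bases before it, while those in Atf3 and Chac1 lie 103 and 186 bases before it. Among stress genes that rose, 5 of the 13 with a promoter in the table held a match (38.5%), and among stress genes tested and not called 5 of 20 did (25%). Over all 32851 promoter windows 3.45% held a match, over promoters of all genes tested 2.41%, over those of genes that rose 3.93% and over those of genes that fell 1.86%. A match is a description of letters and not a bound site.

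Enzymes of amino acid and one-carbon metabolism rose with Atf4. Asns, which makes asparagine, was at 224, 208 and 210 CPM in B6N and 364, 340 and 337 CPM in the knockout. The libraries within each group lay close together, and the log2 fold change was 0.70 ± 0.0735 (adjusted p = 0.000766), a 1.62-fold rise. Mthfd2, a mitochondrial folate enzyme, was at 6.86, 7.82 and 7.47 CPM against 16.3, 17.1 and 14.9 CPM, a log2 fold change of 1.12 ± 0.175 (adjusted p = 0.0059). Aldh18a1, the first enzyme of proline synthesis, went from 29.3, 35.2 and 34.2 CPM to 61.2, 55.1 and 46.9 (0.73 ± 0.126, adjusted p = 0.0099). Chac1, which degrades glutathione, had a log2 fold change of 1.09 ± 0.2 (adjusted p = 0.0127), its knockout libraries at 11.1, 15 and 14.5 CPM and its B6N libraries at 6.09 to 6.66. The serine pathway did not pass: Phgdh was at 0.30 ± 0.119 (adjusted p = 0.155), Psat1 at 0.07 ± 0.0776 (adjusted p = 0.645) and Psph at 0.45 ± 0.124 (adjusted p = 0.0518). Mthfd2 lost its call without B6N 3 (adjusted p = 0.0576), whereas Asns did not lose it without any library.

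Transporters that bring amino acids into the cell rose as well. Slc7a1, the cationic amino acid transporter that carries arginine and lysine, was at 41.7, 36.5 and 38.6 CPM in B6N and 79.3, 75.1 and 72.9 CPM in the knockout (log2 fold change 0.96 ± 0.101, adjusted p = 0.000766). Slc7a3, a relative with the same substrates, was at 8.75, 19.9 and 12.5 CPM against 44.3, 38.7 and 45.2 CPM (1.65 ± 0.235, adjusted p = 0.00842), the largest rise among the transporters. For both genes every knockout library lay above every B6N library. Slc7a5 and Slc3a2, the light and heavy chain of the large neutral amino acid transporter, had log2 fold changes of 0.58 ± 0.115 (adjusted p = 0.0162) and 0.32 ± 0.0743 (adjusted p = 0.027). Slc7a11, the cystine transporter, was at 31.5, 45.8 and 23.8 CPM in B6N and 36.8, 52.2 and 36.2 in the knockout, with overlapping groups (0.31 ± 0.238, adjusted p = 0.498). Without B6N 3 the adjusted p of Slc7a3 was 0.0662.

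**Figure D2:**
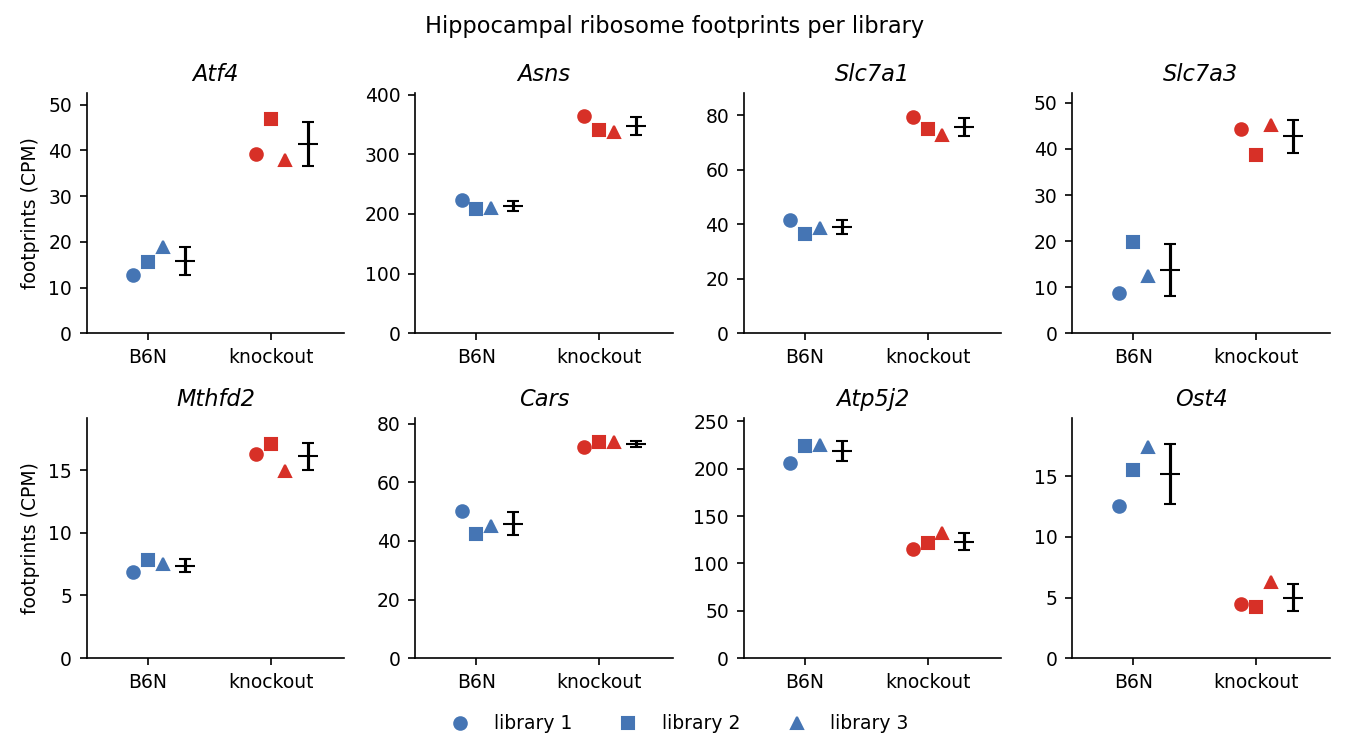
Footprint level in CPM (vertical axes, from 0) in each B6N (blue) and knockout (red) library for 8 genes, with library numbers as symbols and the mean ± SD of 3 libraries in black. Atf4, Asns, Slc7a1, Slc7a3, Mthfd2 and Cars are higher and Atp5j2 and Ost4 lower in all 3 knockout libraries than in any B6N library.

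Of 20 cytosolic aminoacyl-tRNA synthetases tested, the enzymes that load amino acids onto tRNAs, 12 rose and 0 fell (60.0%, against 2.19% of all genes), and 18 had a positive change. Some of those that rose, among them Nars, Cars, Gars and Sars, are also counted in the stress list above. Nars, which loads asparagine, was at 364, 338 and 327 CPM in B6N and 514, 491 and 465 CPM in the knockout (0.51 ± 0.0737, adjusted p = 0.00411). Cars, for cysteine, was at 50.1, 42.3 and 45.2 CPM against 71.9, 73.5 and 73.8 CPM (0.67 ± 0.101, adjusted p = 0.00494). Rars, which loads arginine onto the tRNA family that n-Tr20 belongs to, was at 84, 76.7 and 89.5 CPM against 123, 117 and 104 (0.46 ± 0.097, adjusted p = 0.0199). Yars, Gars, Aars, Iars, Sars, Mars, Lars, Wars and Eprs were the others, with log2 fold changes of 0.34 to 0.51. The summed level of the group was 2697 to 2855 CPM in B6N and 3394 to 3603 CPM in the knockout, without overlap. The median log2 change was 0.38 in footprints and 0.19 in hippocampal RNA. Among 16 mitochondrial synthetases 1 rose, Iars2 (0.50 ± 0.113, adjusted p = 0.0255), which is 6.25%. The count of cytosolic synthetases that rose was 6 without knockout 1, 2 without knockout 2, 3 without B6N 2 and 1 without B6N 3.

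Atp5j2, which encodes the f subunit of the mitochondrial ATP synthase, had a fall as firm as the rise of Asns. It was at 206, 224 and 225 CPM in B6N and 115, 121 and 132 CPM in the knockout. The groups lay far apart relative to their spread, with a log2 fold change of -0.83 ± 0.0845 (adjusted p = 0.000766), 1.78-fold lower. Atp5j2 lies on chromosome 5 from 145183704 to 145191541. Atp5g1, a c subunit gene, fell from 101, 107 and 123 CPM to 75.2, 70.1 and 76 CPM (-0.58 ± 0.0977, adjusted p = 0.00871), and Atp5o, the subunit OSCP of the stator, and Atp5k, a membrane subunit, fell by -0.53 and -0.34 on the log2 scale. Atp5b, the catalytic beta subunit, moved the other way, with a log2 fold change of 0.29 ± 0.067 (adjusted p = 0.0262). In all, 4 of 18 ATP synthase genes fell and 1 rose, against 3.16% and 2.19% of all genes, with a median of -0.17. With the trend of transcript length (described below) taken out, 3 fell and 1 rose and the median was -0.05.

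Genes of the respiratory complexes leaned down as well. Of 37 complex I genes 5 fell and 1 rose, of 14 complex II and III genes 3 fell, and of 14 complex IV genes 3 fell, with medians of -0.13, -0.06 and -0.19. These are 13.5%, 21.4% and 21.4% called lower, against 3.16% of all genes. Cox8a, a small subunit of complex IV, was at 366, 476 and 528 CPM in B6N and 208, 191 and 270 CPM in the knockout (-1.03 ± 0.163, adjusted p = 0.017). Ndufb2, a small accessory subunit of complex I, was at 181, 183 and 170 CPM against 103, 110 and 142 CPM (-0.59 ± 0.109, adjusted p = 0.0139). Ndufs1, the largest core subunit of complex I, rose (0.31 ± 0.0709, adjusted p = 0.027). For these 4 lists no gene was called in hippocampal RNA, where the medians were -0.05, -0.01, -0.08 and, for ATP synthase, -0.04. Without knockout 1, 1 complex I gene, 2 of complexes II and III, 0 of complex IV and 3 ATP synthase genes fell, and without B6N 3 only Atp5j2 of these groups remained called. With the trend of transcript length taken out, 2 complex I genes, 2 of complexes II and III and 2 of complex IV fell, and their medians were -0.03, 0.02 and -0.09.

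Messages of ribosomal proteins, which are short and heavily translated, leaned downward. Of 76 cytosolic ribosomal protein genes, 11 fell and 0 rose (14.5%, against 3.16% of all genes called lower), with a median log2 change of -0.14 in footprints and -0.01 in hippocampal RNA. Rps25 was at 25.7, 37.8 and 36.7 CPM in B6N and 10.4, 16.4 and 18.8 CPM in the knockout (-1.16 ± 0.22, adjusted p = 0.0175). Rplp1, a stalk protein, was at 64.9, 102 and 107 CPM against 29.8, 40.1 and 49.5 CPM (-1.21 ± 0.236, adjusted p = 0.0309). Rps29, Rpl27a and Rpl26 fell by -0.94, -0.72 and -0.68. Ribosomal protein genes have many processed pseudogenes, so reads may be split between copies, and their levels are uncertain in that respect. Leaving out knockout 1 left 1 of the 11 calls and a median of -0.06, leaving out B6N 2, B6N 3 or knockout 2 left 0, and taking out the trend with transcript length left 6 lower and 2 higher with a median of -0.04. Of 77 mitochondrial ribosomal protein genes 5 fell and 0 rose, led by Mrps34 (-0.68 ± 0.118, adjusted p = 0.00995). The share called lower was 6.49%, against 3.16% of all genes and 6.01% in the shortest of 5 groups by transcript length. The count that fell was 2 without knockout 1, 1 without B6N 2 and 0 without B6N 3 or knockout 2. With the length trend taken out it was 3.

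Initiation and elongation factors had calls in both directions. Of 44 tested, 4 rose and 3 fell (9.09% and 6.82%, against 2.19% and 3.16% of all genes). In the highest of 5 groups of genes by footprint level, 6.5% were called higher and 5.37% lower. Without knockout 1 the counts for the 44 factors were 1 and 0, and without B6N 3 or knockout 2 both were 0. Eif3c and Eif3a, subunits of the scaffold eIF3, rose by 0.41 each (adjusted p = 0.0105 and 0.018). Eif5, the GTPase activator of eIF2, fell from 110, 94.9 and 105 CPM to 72.4, 81.6 and 75.4 CPM (-0.43 ± 0.0944, adjusted p = 0.0227). Eif1, a factor for start codon choice, rose (0.37 ± 0.0987, adjusted p = 0.0449) while its relative Eif1b fell (-0.46 ± 0.109, adjusted p = 0.0292). Of 19 genes for ribosome rescue and quality control, which act on stalled ribosomes, 3 rose and 0 fell (15.8% called higher): Nemf, which marks stalled chains on the large subunit (0.47 ± 0.103, adjusted p = 0.0226), the recycling factor Abce1 (0.32 ± 0.0815, adjusted p = 0.0371) and the helicase Ascc3 (0.51 ± 0.138, adjusted p = 0.0487). None of these 3 was called without knockout 1, knockout 2, B6N 2 or B6N 3. Gtpbp2, a GTPase of ribosome rescue, was at 24.6, 22.6 and 25.3 CPM in B6N and 16.2, 15.3 and 23 in the knockout (-0.42, adjusted p = 0.161).

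**Figure D3:**
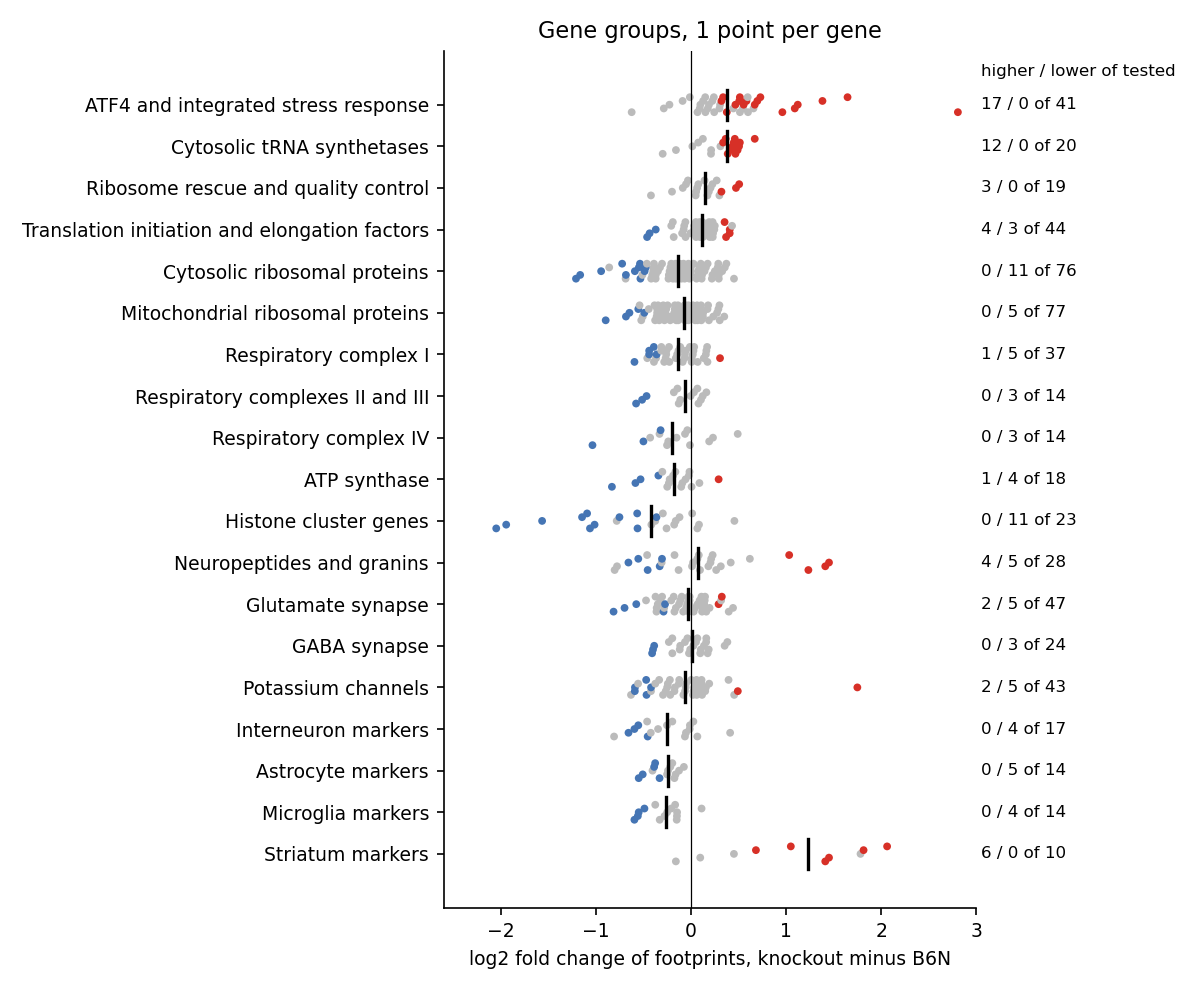
Log2 fold change of footprints (horizontal axis, knockout minus B6N) for the genes of 19 groups (rows), 1 point per tested entry, red where called higher, blue where called lower and grey otherwise, with the group's median as a black bar. Stress genes, synthetases and striatum markers lie to the right; ribosomal proteins, respiratory subunits, histones, astrocyte and microglia markers lean to the left.

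Direction followed transcript length. Genes were sorted by the median length of their annotated protein-coding transcripts and cut into 5 groups of about equal size. The shortest group (105 to 1144 bases, 2646 genes) had a median log2 change of -0.07, with 34 genes called higher and 159 lower. The longest group (3994 bases and above, 2646 genes) had a median of 0.07, with 92 higher and 59 lower, and the 3 groups between gave -0.03, 0.02 and 0.04 in order of length. In hippocampal RNA the 5 medians were between -0.01 and 0.01. The share of all counts that fell on the shortest group was 18.8% to 19.0% in the B6N libraries, 17.3% in knockout 1, 18.3% in knockout 2 and 18.4% in knockout 3. The longest group took 21.3% to 21.9% in B6N and 23.5%, 22.5% and 22.0% in the knockout libraries, so knockout 1 was the farthest from B6N in both. With the length trend taken out of each library, 704 genes were called, 322 higher and 382 lower, and 585 of them were among the 708.

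**Figure D4:**
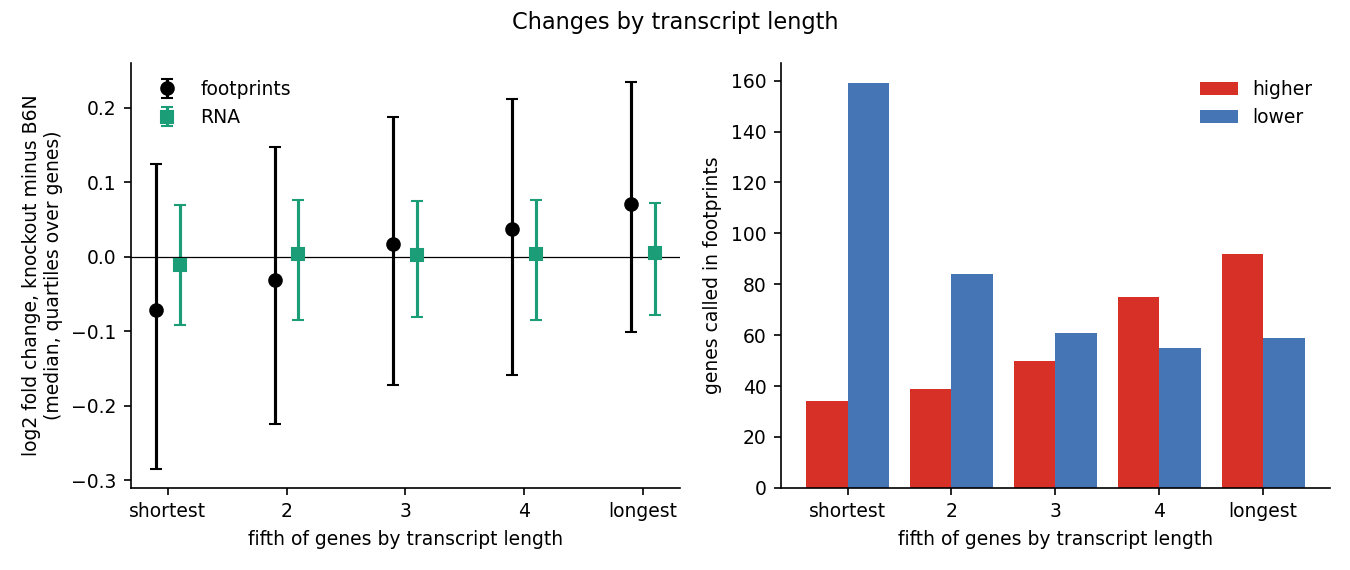
Left, median log2 fold change (knockout minus B6N) with quartiles over genes, for footprints (black) and hippocampal RNA (green), in 5 groups of genes by transcript length. Right, number of genes called higher (red) and lower (blue) in footprints in each group; calls go from 34 higher and 159 lower in the shortest to 92 higher and 59 lower in the longest.

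Histone genes were among the largest falls at a mean of at least 5 CPM. Hist1h3f, an H3 gene of the cluster on chromosome 13, was at 9.65, 12 and 12.1 CPM in B6N and 1.15, 3.42 and 2.65 CPM in the knockout (-2.33 ± 0.329, adjusted p = 0.00411). Hist1h4d, an H4 gene, was at 136, 132 and 121 CPM against 54.3, 57.5 and 75.1 CPM (-1.06 ± 0.118, adjusted p = 0.00109). Hist1h4h was at 48.9, 104 and 98.9 CPM against 19.3, 22.5 and 24.3 CPM, so the B6N libraries themselves lay far apart. Of the 23 tested genes in the histone list, which does not hold Hist1h3f, 11 fell and 0 rose (47.8%, against 3.16%), with a median of -0.42. Their summed level was 968 to 1112 CPM in B6N and 694 to 808 CPM in the knockout. Histone genes are near-identical copies, so reads cannot be assigned to 1 of them with certainty. Most of their messages lack a poly(A) tail, so RNA selected by poly(dT) does not measure them. In forebrain RNA, which was prepared by ribosomal RNA depletion instead, 0 of the 23 genes were called and the median log2 change was 0.08. The count of histone genes that fell in footprints was 4 without knockout 1 and 2 without B6N 3.

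Ost4, a subunit of the oligosaccharyltransferase that glycosylates proteins in the endoplasmic reticulum and one of the shortest proteins known, was at 12.5, 15.5 and 17.4 CPM in B6N and 4.49, 4.21 and 6.25 CPM in the knockout. The groups did not overlap, and the log2 fold change was -1.62 ± 0.22 (adjusted p = 0.00305). Other large falls were in Gng10, a G protein gamma subunit (-1.54, adjusted p = 0.018), Praf2, a small membrane protein (-1.31, adjusted p = 0.0139), Dexi (-1.28, adjusted p = 0.0183), Krt73, a keratin (-1.25, adjusted p = 0.0183), Medag (-1.22, adjusted p = 0.018) and Vkorc1, which recycles vitamin K (-1.21, adjusted p = 0.0331). Among the largest rises beside the stress genes were Sema3a, a repulsive axon guidance cue (1.46, adjusted p = 0.0139), Cyr61, a matricellular protein (1.32, adjusted p = 0.034), Klf2, a flow-responsive transcription factor of endothelium (1.29, adjusted p = 0.00768), Ddr2, a collagen receptor (1.19, adjusted p = 0.00717) and Rai14 (1.17, adjusted p = 0.0254). Endothelial and mural markers moved with Klf2 and Cyr61: 13 of 14 were positive, 0 were called by edgeR (6 at an unadjusted p under 0.05, 3 by DESeq2 and 8 without B6N 1), and their summed level was 602 to 908 CPM in B6N and 889 to 1088 in the knockout. Their part in these rises was not tested.

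Neuropeptide genes changed in both directions. Of 28 neuropeptide and granin genes 4 rose and 5 fell (14.3% and 17.9%, against 2.19% and 3.16% of all genes). Penk and Tac1, 2 of the 4 that rose, are also striatum markers and are described with them. Pcsk1n, the precursor proSAAS that inhibits a prohormone convertase, fell from 465, 488 and 497 CPM to 286, 297 and 337 CPM (-0.66 ± 0.0781, adjusted p = 0.00112), without overlap and in every setting tried. Sst, somatostatin of dendrite-targeting interneurons, was at 315, 350 and 331 CPM against 209, 192 and 279 CPM (-0.55 ± 0.121, adjusted p = 0.0276). Cck, cholecystokinin of another interneuron class, was at 520, 521 and 661 CPM against 401, 431 and 411 CPM (-0.45 ± 0.0918, adjusted p = 0.018). Cort, a peptide close to somatostatin, rose from 5.07, 4.02 and 3.91 CPM to 7.48, 8.55 and 10.8 CPM (1.03 ± 0.242, adjusted p = 0.0283), the opposite direction to Sst. Cort was also called higher in hippocampal RNA (1.53, adjusted p = 0.0101) and in forebrain RNA (1.27, adjusted p = 1.9e-06). Adcyap1, the peptide PACAP, was at 4.38, 3.91 and 4.27 CPM against 13.5, 9.08 and 6.49 CPM (1.24 ± 0.274, adjusted p = 0.0234), highest in knockout 1, without which its adjusted p was 0.0783. Without knockout 1, 2 neuropeptide genes rose and 2 fell, and without B6N 3, 0 rose and 1 fell.

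Interneuron markers leaned down: of 17, 4 fell and 0 rose (23.5%, against 3.16%), and 14 were negative, with medians of -0.25 in footprints and -0.30 in hippocampal RNA. Beside Sst and Cck these were Pvalb, the calcium buffer of fast-spiking cells (57.4, 59.2 and 49.6 CPM against 31.8, 35.3 and 43.6 CPM, -0.59 ± 0.131, adjusted p = 0.0233) and Htr3a, a serotonin-gated channel (-0.66 ± 0.168, adjusted p = 0.0388). In bulk tissue, fewer cells of a type and less RNA or fewer ribosomes per cell cannot be told apart. The count was 1 without knockout 1 or B6N 2 and 0 without B6N 3 or knockout 2.

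Markers of the striatum, a brain region outside the hippocampus, were higher in the knockout footprints. Of 10 such genes 6 rose and 0 fell (60.0%, against 2.19%), with a median log2 change of 1.23, and their summed level was 193 to 223 CPM in B6N and 279 to 485 CPM in the knockout. Drd1, a dopamine receptor, was at 5.17, 5.11 and 2.58 CPM in B6N and 21.3, 8.95 and 13.8 CPM in the knockout, highest in knockout 1, and Penk, the enkephalin precursor, at 45.8, 61.6 and 46.3 CPM against 158, 85.8 and 163 CPM. Tac1, which encodes substance P, was at 15.1, 18.1 and 14 CPM against 60.1, 30.5 and 36.7 CPM. Their log2 fold changes were 1.82, 1.41 and 1.45 (adjusted p = 0.0183, 0.0427 and 0.0139), and Rgs9 and Pde10a, which are also strong in striatum, rose by 1.05 and 0.68. Drd2 (0.10, adjusted p = 0.911) and Ppp1r1b (0.45, adjusted p = 0.184) were not called. In hippocampal RNA the median of the 10 genes was -0.14 and 0 were called, and without knockout 1, 3 rose and the footprint median was 0.92. The count was 1 without B6N 2 and 0 without B6N 3, where the medians were 1.33 and 1.20. Drd1, Penk and Tac1 are among the 12 largest rises that the naming rule picked, and the part of dissected tissue in them was not tested.

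Some synaptic genes changed, in both directions. Cplx1, complexin 1, which clamps and primes synaptic vesicle fusion, fell from 343, 315 and 328 CPM to 208, 205 and 240 CPM (-0.59 ± 0.0814, adjusted p = 0.00305) and held its call in every setting. Cplx2 fell less (-0.40 ± 0.0933, adjusted p = 0.0275), and Syt5, a synaptotagmin, rose from 172, 196 and 180 CPM to 234, 242 and 283 CPM (0.47 ± 0.09, adjusted p = 0.015). Of 46 presynaptic genes 1 rose and 3 fell, of 47 glutamate synapse genes 2 rose and 5 fell, and of 24 GABA synapse genes 0 rose and 3 fell. The shares called higher were 2.17%, 4.26% and 0%, against 2.19% of all genes, and those called lower 6.52%, 10.6% and 12.5%, against 3.16%. The presynaptic share called higher is thus that of all genes. In the highest of 5 groups of genes by footprint level, 6.5% were called higher and 5.37% lower. The AMPA receptor subunits Gria3 and Gria2 rose by 0.33 and 0.29 (adjusted p = 0.0301 and 0.0401), and the AMPA receptor partner Cacng2 and the scaffold partner Dlgap3 fell by -0.70 and -0.57 (adjusted p = 0.0435 and 0.0162). The GABA transporter Slc6a11 and the GABA-B subunit Gabbr2 fell by -0.40 and -0.39 (adjusted p = 0.0399 and 0.0162). Without knockout 1, 1 glutamate synapse gene and 2 GABA synapse genes were called lower, and without B6N 3 or knockout 2 no gene of either list was called.

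Of 43 potassium channel genes 2 rose and 5 fell. Kcnt2, a sodium-activated channel, rose from 61, 66.3 and 57.3 CPM to 89.7, 85.5 and 84.2 CPM (0.49 ± 0.095, adjusted p = 0.0156). Kcnc2, a channel of fast-spiking neurons, fell by -0.42 (adjusted p = 0.0418), and Kcnj10, the inward rectifier of astrocytes, by -0.59 (adjusted p = 0.0232). Of 27 sodium, calcium and HCN channel genes, 1 rose, Cacna2d1 (0.27, adjusted p = 0.0337), and 2 fell, among them Cacnb3, an accessory subunit of calcium channels (-0.42, adjusted p = 0.0286). The shares called higher and lower were 4.65% and 11.6% for potassium channels, against 2.19% and 3.16% of all genes. For sodium, calcium and HCN channels they were 3.7% and 7.41%. By footprint level, the highest of 5 groups of genes had 6.5% called higher and 5.37% lower. Without knockout 1 the potassium channel counts were 1 and 3, and those of the other channels 0 and 1. Without B6N 3 or knockout 2 no channel was called.

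Astrocyte and microglia markers leaned down. Of 14 astrocyte markers 5 fell and 14 were negative (35.7% called lower, against 3.16%), with medians of -0.25 in footprints and -0.15 in hippocampal RNA. Fgfr3 was at 75.3, 85.2 and 96.9 CPM in B6N and 64.3, 59.9 and 56.8 CPM in the knockout (-0.51 ± 0.109, adjusted p = 0.0217), and S100b, Aldoc, Glul and Sox9 were the others. Of 14 microglia markers 4 fell, the complement genes C1qa, C1qb and C1qc (-0.56, -0.55 and -0.49) and the chemokine receptor Cx3cr1 (-0.59). Of 14 oligodendrocyte markers 2 fell: Mbp, myelin basic protein, from 527, 649 and 656 CPM to 377, 376 and 424 CPM (-0.64 ± 0.0903, adjusted p = 0.00411), and Mobp (-0.57 ± 0.1, adjusted p = 0.0104). Cnp, another myelin gene, was at 0.25 (adjusted p = 0.228). The oligodendrocyte markers as a list did not lean down in footprints: 8 of 14 were positive and the median was 0.03. Without B6N 1, 2 were called higher and 2 lower. In hippocampal RNA the median of this list was -0.38, with 0 called. Mbp kept its call in every setting. The astrocyte and microglia counts were 2 and 1 without knockout 1, and 0 for both without B6N 2, B6N 3 or knockout 2. Dentate granule cell markers had 1 call, Prox1 (-0.46 ± 0.107, adjusted p = 0.0273), and CA1 and CA3 markers had 0 by edgeR (0 and 5 at an unadjusted p under 0.05, and 0 and 2 by DESeq2). The summed level of 13 choroid plexus and ependymal markers was 7856 to 16920 CPM in B6N and 11180 to 26020 in the knockout, highest in knockout 1, with 0 called by edgeR or DESeq2 and 0 at an unadjusted p under 0.05.

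Footprints were then set beside hippocampal RNA, to see how far a change in ribosomes on a message is matched by the amount of the message. In RNA only 8 of 19352 genes were called (0.0413%), 6 higher and 2 lower. Without RNA knockout 1 these 8 were among 10 calls, and without RNA knockout 2 all 8 were kept. Of the 8, 6 were kept without RNA B6N 1, 3 without RNA B6N 2 and 0 without RNA B6N 3 or RNA knockout 3. All 6 genes called higher in RNA were also higher in footprints: Atf4, Cars, Mthfd2, Slc7a3, Chac1 and Cort. Of the 290 genes called higher in footprints 82.1% had a positive change in RNA, and of 401 called lower and tested in RNA 75.3% had a negative one, against 58.7% with the same sign over all 13151 genes tested in both. The RNA changes of these genes were small, with medians of 0.09 and -0.07 against 0.44 and -0.55 in footprints. Atf4 RNA was at 86.7, 73.9 and 81.7 CPM in B6N and 121, 131 and 128 CPM in the knockout (0.65 ± 0.0698, adjusted p = 0.0123). Slc7a3 and Mthfd2 had nearly the same change in both measures, 1.62 and 1.18 in RNA. Atp5j2 RNA was lower in each knockout library, 60, 62.7 and 66.1 CPM against 84.7, 67.7 and 80.4 CPM, but was not called (-0.30 ± 0.0848, adjusted p = 0.409). Ost4 RNA overlapped between groups, 13.3, 12.7 and 13.4 CPM against 12.6, 12 and 12.8 CPM. Whether footprint and RNA libraries of 1 number come from 1 mouse is not stated. For knockout 1 they differed in Y-linked genes, with Ddx3y at 44.2 CPM in footprints and 0.336 CPM in RNA. Those 2 libraries therefore cannot both come from 1 mouse alone.

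Translational efficiency, the footprint change relative to the RNA change, was tested on the 12 hippocampal libraries as an assay by genotype term. No gene of 15202 was called by edgeR (0%), with 2251 genes at an unadjusted p under 0.05. DESeq2 called 494, 117 higher and 377 lower, and edgeR without a filter on low counts 38. The lowest adjusted p was that of Ost4, at -1.57 ± 0.222 (adjusted p = 0.0534). Atf4 was at 0.70 ± 0.165 (adjusted p = 0.0878), Atp5j2 at -0.55 ± 0.12 (adjusted p = 0.0759), Rps25 at -1.18 ± 0.244 (adjusted p = 0.0744) and Penk at 1.83 ± 0.327 (adjusted p = 0.0622), all short of the threshold. For Slc7a3, Mthfd2 and Cars the estimates were -0.00, -0.08 and 0.08 with SE of 0.266, 0.187 and 0.11. Leaving out footprint library B6N 1 or knockout 3 gave 301 and 285 calls, and the other single libraries gave 0 to 6, the 6 without RNA knockout 1.

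**Figure D5:**
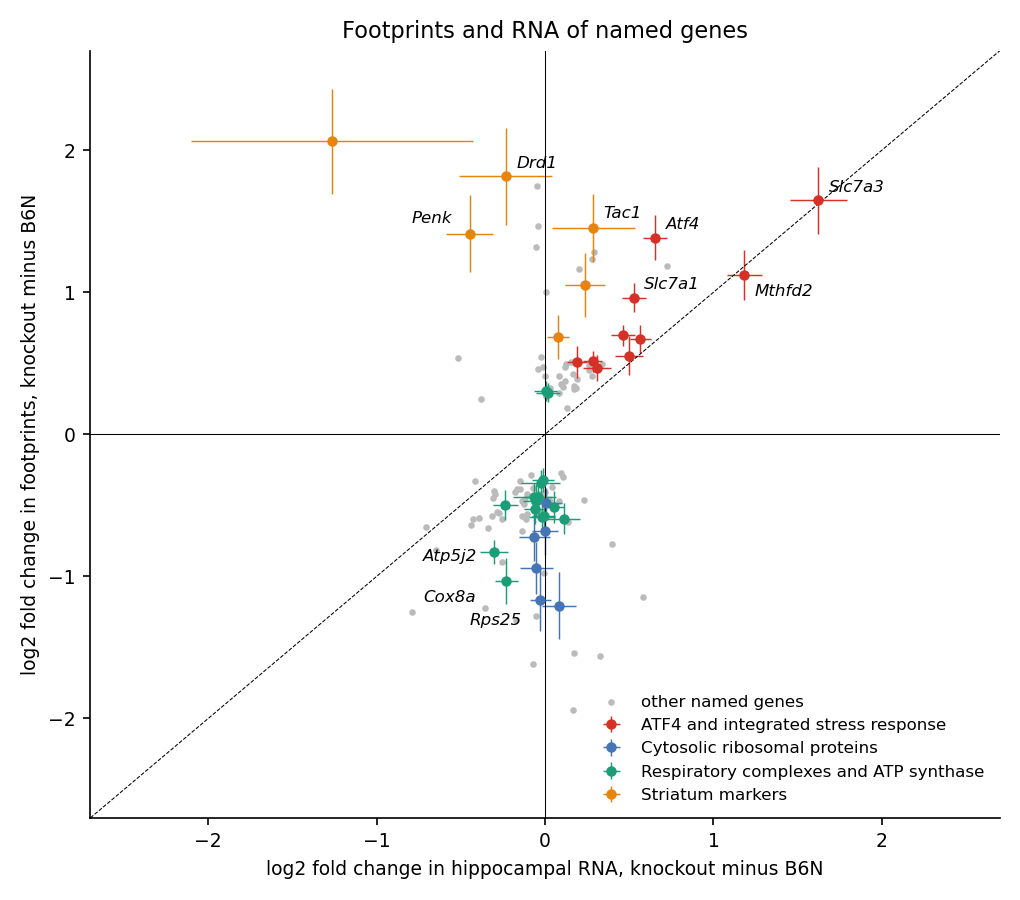
Log2 fold change (knockout minus B6N) in footprints (vertical axis) against that in hippocampal RNA (horizontal axis) for the named genes tested in both, with SE bars for 4 groups and a dashed line of equal change. Slc7a3 and Mthfd2 lie on the line, Atf4 and Slc7a1 above it, ribosomal proteins near 0 in RNA, and the striatum markers Drd1 and Penk are negative in RNA.

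In forebrain RNA, from other libraries prepared by ribosomal RNA depletion, 481 of 25151 genes were called (1.91%). Of the footprint calls tested there, 91 of 707 were called in forebrain RNA too, which is 12.9% of the footprint calls and 21.2% of the 430 forebrain calls tested in footprints, and 87 of the 91 had the same direction. Atf4 was at 54.7 to 57.4 CPM in B6N forebrain and 87.7 to 96.4 CPM in knockout forebrain (0.71 ± 0.0401, adjusted p = 3.3e-13). Asns, Slc7a1, Slc7a3 and Mthfd2 were called higher there by 0.50, 0.36, 1.22 and 0.95, smaller values than in hippocampal footprints, though the difference between tissues and assays was not tested. Atp5j2 was called lower by -0.22 ± 0.0469 (adjusted p = 0.00705), with groups at 60.7 to 66.2 CPM and 48.8 to 57.6 CPM. Cplx1 (-0.30, adjusted p = 5.98e-05) and Krt73 (-1.52, adjusted p = 0.00906) were lower in forebrain RNA as well. Pcsk1n (-0.09, adjusted p = 0.689), Mbp (-0.03, adjusted p = 0.931), Rps25 (-0.03, adjusted p = 0.837) and Penk (0.15, adjusted p = 0.437) were not called there. Nudt3, a hydrolase of diphosphoinositol phosphates, was called in opposite directions, -0.77 in footprints and 0.40 in forebrain RNA.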

How the data were processed

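Hippocampal footprints and RNA were deposited by the authors as raw whole-number gene counts, and forebrain RNA as estimated counts per transcript in the layout kallisto writes, per the file headers. Bowtie2 2.2.3, HISAT2 2.1.0, featureCounts, kallisto 0.42.4 and build mm10 stand in the submitters' processing notes, without their roles. Filters on fragment length and the strand setting were not found in these sources. Forebrain estimates were summed per gene and rounded. Each comparison was fitted with edgeR 4.0.16 (R 4.3.3): a filterByExpr minimum count of 10, TMM size factors, robust quasi-likelihood F test, two-sided, Benjamini-Hochberg adjustment over all genes tested. Translational efficiency was the assay by genotype interaction over 12 libraries; the forebrain fit held the 16 libraries of batch 1, C57BL/6J and Tg(n-Tr20) included. DESeq2 1.42.0 and limma 3.58.1 were alternatives. An exact permutation test of 3 against 3 cannot go below 0.1, so none is reported. The scripts were tested on simulated counts. Replicate numbers did not pair the libraries (correlation of same-numbered deviations 0.049, 0.07 and -0.024). The closest pair of footprint libraries differed beyond counting error (chi-square over degrees of freedom 4.424). A planned split by coding length and AGA codons was not run, as no genome was used here; median transcript length replaced it. Named genes are the 3 markers, the 12 largest rises and falls of at least 5 CPM with groups apart, up to 6 genes of lowest p per list, and the 4 lowest p in translational efficiency; further list members were named after their values were seen. Members and the 43 lists were chosen with earlier results of these data known. Some genes are not reported here.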

Additional observations from a re-analysis of the deposited data

Results flagged for a closer look

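In forebrain RNA, B6N library 4 lay below the other 3 B6N libraries for Slc7a1, at 36.5 CPM against 37.2 to 37.3 CPM, and for Atf4, at 54.7 CPM against 57.1 to 57.4 CPM. The gap to the nearest library was 0.875 and 0.866 of the group's range, above Dixon's 95% critical value for 4 libraries. These are 2 of 40 forebrain groups tested, and chance gives about 1 in 20. Groups of 3 footprint libraries were not tested in this way.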

How the results depend on the processing

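For footprints, 708 calls became 1080 with DESeq2, 879 without a filter, 558 without robust estimates, 792 at a mean of at least 5 CPM and 628 with limma-voom. Leaving out single libraries gave 32 to 916 calls, with fewer samples in each fit. With library totals in place of TMM the calls were 224 higher and 496 lower (31.1% higher, against 41%), and with upper quartile scaling 260 and 472. For hippocampal RNA the 8 calls became 138 with DESeq2 and 135 without a filter, and 0 to 10 without single libraries. For translational efficiency the 0 calls (2251 at an unadjusted p under 0.05) became 494 with DESeq2 and 38 without a filter, and 0 to 301 without single libraries. For forebrain RNA the 481 calls became 559 with DESeq2, 489 without a filter and 262 to 751 without single libraries. The cause of these shifts was not tested. With a replicate block the calls were 630, 6, 0 and 513 (in the mTORC1 list 0 higher and 2 lower). Of 125 called genes that the naming rule picked, 103 kept their call, and the numbers pair no samples by any label. None of the 133 genes that the rule picked reversed in 18 settings. Of the 125, 94 kept their call outside the fits without 1 library, and 113 lost it in at least 1 of those. Genes named beyond the rule are not in these counts. Counts of list members without knockout 1, and the fit without the length trend, were chosen after seeing the data. Depths of 7.6 M to 17.9 M leave genes of few CPM imprecise.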

Other observations

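Several gene groups outside the comparisons above were measured in the footprints. Most had 1 or 2 calls, to be read against 2.19% of all genes called higher and 3.16% called lower. In the highest of 5 groups of genes by footprint level, these shares were 6.5% and 5.37%. The 13 proteins encoded in mitochondrial DNA were all positive with a median log2 change of 0.27, but their summed level overlapped (2168 to 4572 CPM in B6N and 2879 to 4900 CPM in the knockout) and 0 were called by edgeR or DESeq2, with 0 at an unadjusted p under 0.05 and 4 called higher without B6N 1. Of 31 proteasome subunits 2 rose, Psmd14 (0.34 ± 0.0806, adjusted p = 0.0286) and Psma6 (0.38 ± 0.0923, adjusted p = 0.0337), and 0 fell. Of 30 genes of the mTORC1 pathway 2 rose, Sesn2, a leucine sensor that is also a target of ATF4 (0.55 ± 0.14, adjusted p = 0.0358), and Rragb, a GTPase that recruits mTORC1 to the lysosome (0.33 ± 0.0848, adjusted p = 0.0366), with a median of 0.01. The calls in this list turned with the setting: 0 rose and 2 fell without B6N 1, and 2 rose and 2 fell with DESeq2. Of 16 genes in the heat shock list 1 fell and 1 rose: Hspe1, whose product is the co-chaperonin of mitochondria and not a cytosolic protein, fell (-0.62 ± 0.127, adjusted p = 0.018) and Hspa4 rose (0.33 ± 0.0877, adjusted p = 0.0466). Of 22 endoplasmic reticulum chaperone and unfolded protein response genes 1 rose, Herpud1 (0.51 ± 0.112, adjusted p = 0.0239). Among 23 sterol and fatty acid genes Srebf1, a regulator of lipid synthesis, fell (-0.45 ± 0.112, adjusted p = 0.0355). None of the proteasome, mTORC1 or chaperone rises was called without knockout 1.

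Neuronal immediate early genes were mostly positive, 31 of 36, with a median of 0.32 in footprints and 0.01 in hippocampal RNA. Only Klf2 rose and Jund fell (-0.47 ± 0.108, adjusted p = 0.0268), and DESeq2 called 7 higher and 1 lower. Their summed level was 1529 to 2141 CPM in B6N and 2189 to 2525 CPM in the knockout. Of 21 circadian clock genes 0 were called by edgeR and 4 were at an unadjusted p under 0.05, with 3 higher and 1 lower by DESeq2. Abi3bp, an extracellular matrix protein named after its values were seen, was at 52.6 CPM in knockout 1 and at 2.98 to 5.79 CPM in the other 5 footprint libraries.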
